A study of Mus musculus with 6 samples.

Results

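The 36 genes described here are antiviral genes that type I interferon induces: *Ifit1*, *Ifit2*, *Ifit3*, *Isg15*, *Isg20*, *Mx1*, *Mx2*, *Oas1a*, *Oas1g*, *Oas2*, *Oas3*, *Oasl1*, *Oasl2*, *Rsad2*, *Irf7*, *Irf9*, *Irf1*, *Stat2*, *Usp18*, *Ifi44*, *Ddx58*, *Ifih1*, *Dhx58*, *Bst2*, *Zbp1*, *Xaf1*, *Rtp4*, *Eif2ak2*, *Ifi35*, *Parp14*, *Parp9*, *Dtx3l*, *Cmpk2*, *Trim30a*, *Samd9l* and *Herc6*. They were taken by symbol, with guanylate-binding proteins and chemokines left out, from 41786 counted gene symbols. All 36 were found, and all passed the filter on low counts that left 17364 genes for testing. The lesions grew from uterus of 6-week-old B6-GFP positive donors, sutured inside the abdomen, on the peritoneal wall, of recipients that were wild-type C57BL/6 females aged 8 weeks and matched for stage of the cycle. Dosing began 3 days later. One group of 3 libraries came from mice given niclosamide, an anthelmintic drug, by mouth at 200 mg/kg body weight daily for 3 weeks, and the other group of 3 from mice given vehicle alone for the same time. All lesions therefore carried GFP-positive donor tissue, and all were collected in diestrus. Vehicle 1 was RNA pooled from 4 mice, and no other library is described as pooled, so the SD of the vehicle group mixes a pooled value with unpooled ones.

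Type I interferons bind the receptor chains IFNAR1 and IFNAR2. The attached kinases JAK1 and TYK2 then phosphorylate STAT proteins, among them STAT2, which acts with IRF9 in the factor ISGF3. ISGF3 binds an interferon-stimulated response element (ISRE) in the promoters of many genes. Their products sense viral nucleic acid, degrade or mask viral RNA and hold back virus particles. Interferon gamma acts mainly through a different element, the GAS site, and induces part of the same genes. In the uterus the epithelium makes a type I interferon of its own, interferon epsilon, without infection, and ISG15 is known to rise in the decidua of early pregnancy.

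The members were chosen as genes induced through ISGF3, so the presence of its element in their promoters is a description and not independent of the choice. RefSeq promoter windows of build GRCm38.p6, running from 250 bases before to 50 bases after an annotated start, matched 27 of the 36 symbols in 33 windows. The ISRE core, GAAA followed by any 2 bases and GAAA again, searched on both strands with overlapping matches allowed, was present in 14 of the 33 windows (42.4%), against 1131 of all 32851 windows (3.44%). By gene, 13 of 27 had at least 1 match. The GAS element TTCNNNGAA, which reads the same on both strands, was present in 7 of the 33 windows (21.2%), against 8.3% of all windows. A match of these letters is a description and does not show binding. The windows of the 5 genes with a match and the highest level per length are printed 5′ to 3′ on the gene's strand, with ISRE core matches in capitals. They lie at chr8:71537423-71537722 (minus strand) for *Bst2*, chr4:156200769-156201068 (minus strand) for *Isg15*, chr7:104465144-104465443 (minus strand) for *Trim30a*, chr10:128270248-128270547 (plus strand) for *Stat2* and chr19:34583279-34583578 (plus strand) for *Ifit3*.
Bst2: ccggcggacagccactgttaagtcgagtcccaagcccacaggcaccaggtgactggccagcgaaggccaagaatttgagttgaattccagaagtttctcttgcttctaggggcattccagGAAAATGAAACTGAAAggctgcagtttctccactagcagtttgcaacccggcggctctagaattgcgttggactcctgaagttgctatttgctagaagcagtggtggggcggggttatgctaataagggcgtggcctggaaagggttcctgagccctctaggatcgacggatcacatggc
Isg15: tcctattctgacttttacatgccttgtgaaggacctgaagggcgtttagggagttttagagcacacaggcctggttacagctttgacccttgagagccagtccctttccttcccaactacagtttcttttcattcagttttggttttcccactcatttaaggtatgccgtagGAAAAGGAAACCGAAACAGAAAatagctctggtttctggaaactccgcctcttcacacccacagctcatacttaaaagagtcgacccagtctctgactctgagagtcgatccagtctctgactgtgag
Trim30a: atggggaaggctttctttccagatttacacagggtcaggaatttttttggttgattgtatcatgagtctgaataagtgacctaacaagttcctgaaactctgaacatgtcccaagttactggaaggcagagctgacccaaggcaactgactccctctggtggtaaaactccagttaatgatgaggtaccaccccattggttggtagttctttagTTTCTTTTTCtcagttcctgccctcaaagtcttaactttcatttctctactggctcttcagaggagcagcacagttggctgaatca
Stat2: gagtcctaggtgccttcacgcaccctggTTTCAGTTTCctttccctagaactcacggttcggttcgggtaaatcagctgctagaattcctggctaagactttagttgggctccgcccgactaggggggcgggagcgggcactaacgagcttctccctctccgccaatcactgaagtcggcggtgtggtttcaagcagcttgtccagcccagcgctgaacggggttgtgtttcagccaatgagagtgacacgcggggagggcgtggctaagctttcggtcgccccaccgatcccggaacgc
Ifit3: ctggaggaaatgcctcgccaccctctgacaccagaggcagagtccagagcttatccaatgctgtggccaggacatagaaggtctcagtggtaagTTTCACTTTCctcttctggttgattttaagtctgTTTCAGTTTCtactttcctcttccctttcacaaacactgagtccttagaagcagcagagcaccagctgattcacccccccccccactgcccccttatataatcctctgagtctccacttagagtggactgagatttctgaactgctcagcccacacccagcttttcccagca
*Isg15* holds 3 overlapping cores that begin 78, 72 and 66 bases before its start, and *Bst2* holds 2 overlapping cores that begin 130 and 124 bases before. *Ifit3* holds 2 separate cores, 156 and 122 bases before its start. The first *Trim30a* start has 1 match at 36 bases before it, and the single *Stat2* match lies farther out, at 222 bases before.

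**Figure D1:**
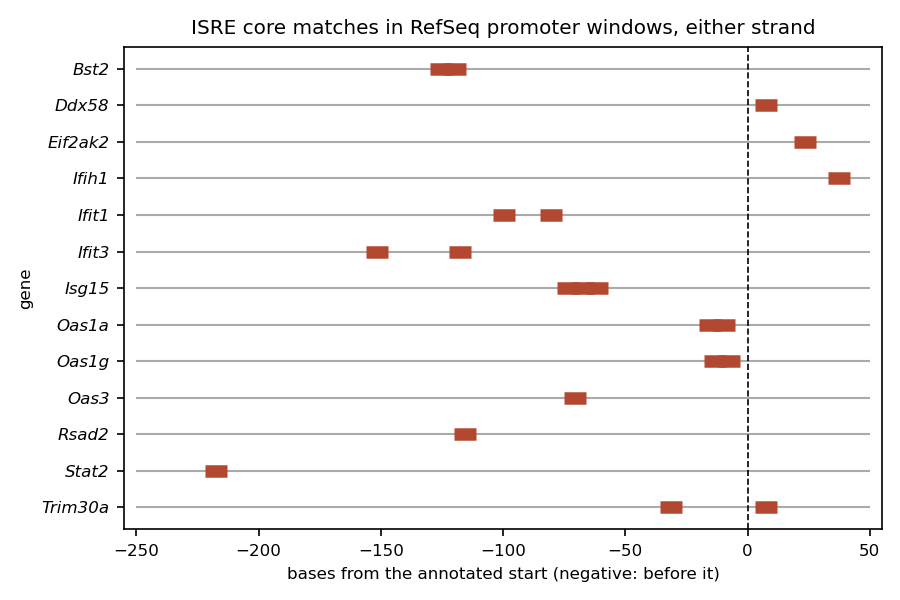
Position of each ISRE core match (bar) in the promoter windows of the 13 genes that have one, in bases from the annotated start. *Trim30a* has 2 windows with 1 match each, drawn on 1 line. Matches before the start lie within 156 bases of it except in *Stat2* (222), and those of *Ddx58*, *Eif2ak2*, *Ifih1* and the second *Trim30a* window lie 3 to 33 bases after it.

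Libraries held 31177893, 33606591 and 31050619 counted reads with niclosamide and 27797121, 34797000 and 31061717 with vehicle, and every one of the 36 genes had at least 214 reads in every library. Values below are CPM, counts scaled to library size with TMM factors, and log2 fold changes are niclosamide over vehicle with their standard error (SE). Uterine markers were looked up: 10 of 10 stromal and 12 of 12 epithelial genes had reads in every library, among them *Hoxa10*, *Hoxa11*, *Pgr*, *Esr1* and *Epcam*. At this depth such reads do not test the tissue label. All 9 skeletal muscle and all 6 adipocyte markers listed had reads in every library too. The libraries differed widely in recipient tissue. Skeletal muscle markers summed to 34128, 825 and 12113 CPM in niclosamide 1 to 3, and to 4820, 11417 and 12030 CPM in vehicle 1 to 3.

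All 36 genes were expressed in both groups. Compared per length, as CPM per kilobase of exon averaged over the 6 libraries, *Bst2* stood first at 333 ± 58 (SD, n = 6). Bst2 is tetherin, a membrane protein that holds budding virus on the cell surface, and in the mouse it also marks plasmacytoid dendritic cells. Its lowest library, at 234 CPM per kilobase, was above the highest library of the next gene. *Irf1* followed at 80.5 ± 30.7, then *Isg15* at 78.1 ± 20.6 and *Zbp1* at 64.9 ± 28.8. *Mx2* was lowest at 3.95 ± 0.795, and *Oas1g* was next lowest at 6.92 ± 1.27. Apart from *Bst2*, no gene was separated from its neighbour in this order beyond the range of its libraries.

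**Figure D2:**
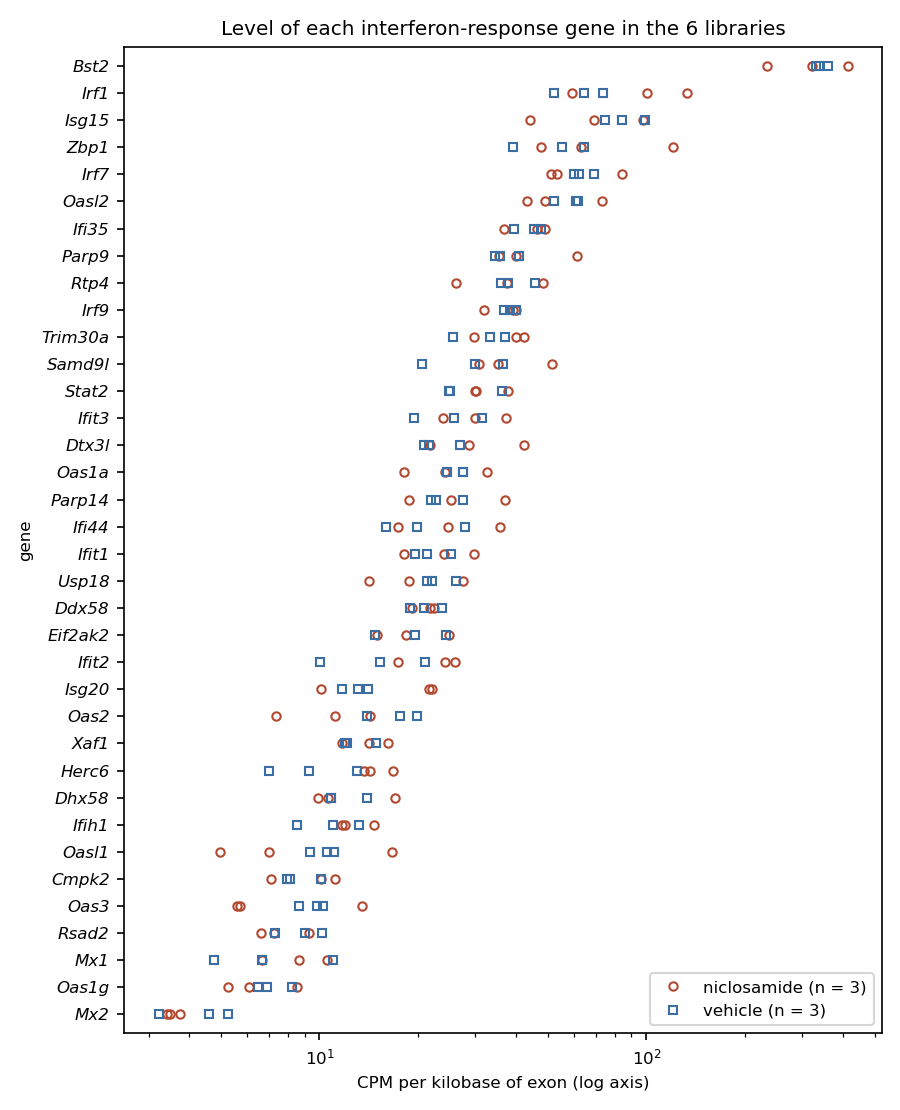
CPM per kilobase of exon (log axis) for each gene in the 3 niclosamide libraries (circles) and the 3 vehicle libraries (squares), ordered by the mean over all 6. *Bst2* averages 333 and *Mx2* 3.95, and circles and squares overlap in every gene but *Herc6*.

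Against vehicle, niclosamide lesions showed no called change in the group. With p-values from edgeR's quasi-likelihood fit, adjusted by Benjamini-Hochberg over 17364 genes, 0 of the 36 passed an adjusted p of 0.05, where 0% of all genes were called, and their adjusted p-values lay between 0.685 and 0.999. At an unadjusted p under 0.05 there were 2 of 36 genes, *Herc6* higher and *Oas2* lower, against 6.92% of all genes tested (3.37% higher and 3.55% lower). The 2 groups of libraries did not overlap in 1 of 36 genes (2.78%), *Herc6*, against 12.3% of all genes tested (5.9% higher and 6.37% lower). Neither share exceeds that over all genes. DESeq2 called 195 genes (1.12%), of which 0 were among the 36, and limma-voom called 0 genes. The log2 fold change was above 0 in 20 of 36 (55.6%) with a median of 0.09, against 53.7% and 0.02 over all genes tested, and none reached an absolute value of 1. The 95% interval lay wholly between -1 and 1 in 24 of 36 genes (66.7%), against 58.6% of all genes tested. In those 24 a halving or doubling lies outside the interval, and in the other 12 it does not. These p-values measure the spread between these libraries only. In bulk tissue, fewer cells of a type and less RNA per cell cannot be told apart.

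**Figure D3:**
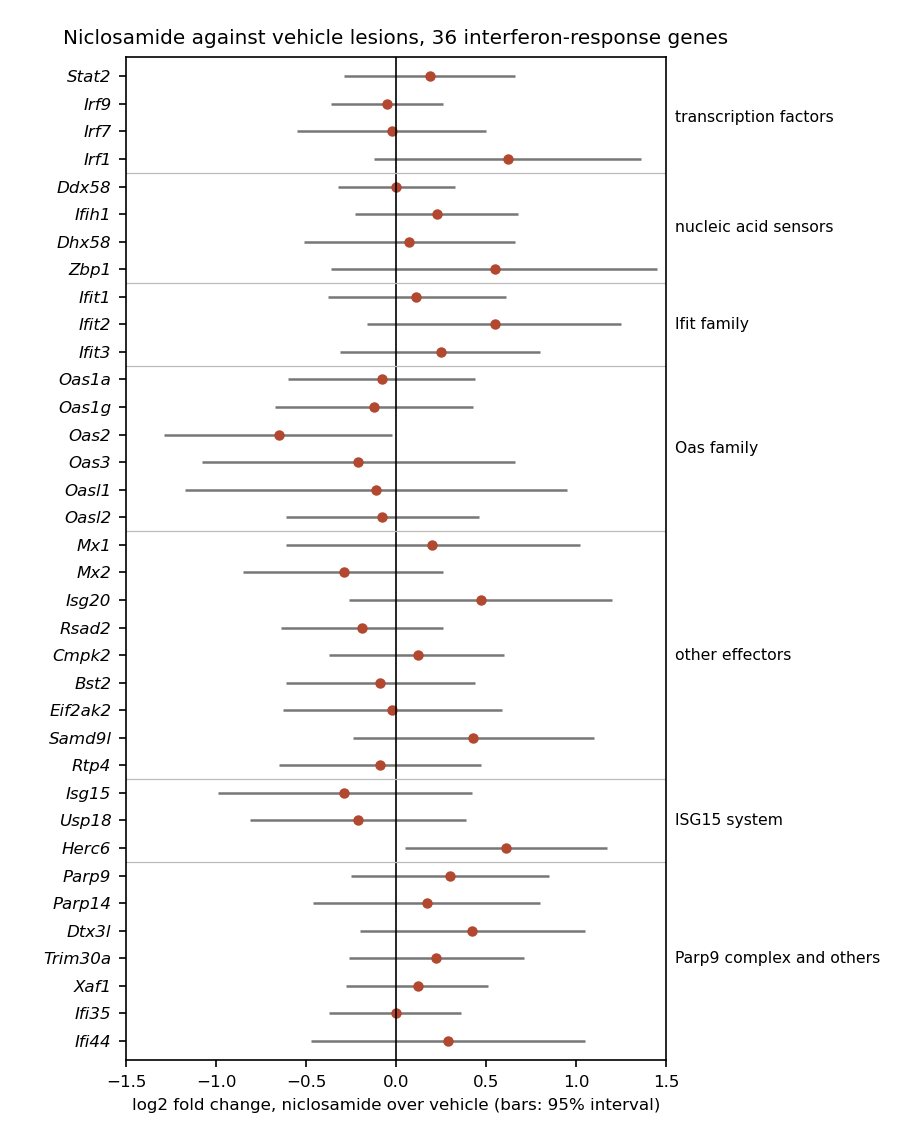
Log2 fold change, niclosamide over vehicle (points), with its 95% interval (bars) for the 36 genes by role. All but 2 intervals include 0, those of *Herc6* (0.05 to 1.17) and *Oas2* (-1.29 to -0.02), and neither gene passed after adjustment.

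Of the 4 transcription factors, 2 had a log2 fold change above 0 and 2 below, and none was called. *Stat2*, on chr10:128270559-128292852, had 136, 170 and 135 CPM in niclosamide 1 to 3, against 112, 163 and 113 CPM in vehicle 1 to 3. Vehicle 2 reached the niclosamide range (log2 fold change 0.19 ± 0.20 SE). *Irf9*, the DNA-binding partner in ISGF3, had 85.7, 107 and 105 CPM with niclosamide, against 107, 103 and 98.5 CPM with vehicle. Niclosamide 1 was lowest and the other 5 libraries lay close together. The interval of its log2 fold change, -0.36 to 0.26, was the narrowest of the 36. *Irf7*, which amplifies interferon production and is itself an ISGF3 target, had 103, 163 and 98.7 CPM with niclosamide, against 120, 134 and 116 CPM with vehicle. Niclosamide 2 was the highest library and the other 2 niclosamide libraries were the lowest, so that the vehicle values lay inside the niclosamide range. *Irf1*, a factor that interferon gamma induces strongly, had 338, 446 and 199 CPM with niclosamide, against 247, 217 and 175 CPM with vehicle. Niclosamide 1 and 2 were above every vehicle library and niclosamide 3 was not (log2 fold change 0.62 ± 0.31 SE, edgeR, adjusted p = 0.785).

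The sensors of foreign nucleic acid gave no called change. *Ddx58* encodes RIG-I, which detects uncapped RNA ends. It had 94.8, 108 and 111 CPM with niclosamide, against 93.5, 117 and 103 CPM with vehicle, with a log2 fold change of 0.00 and an interval of -0.32 to 0.33. *Ifih1*, which encodes MDA5, a sensor of long double-stranded RNA, had 69.6, 85.4 and 68 CPM with niclosamide, against 49.7, 76.7 and 64.1 CPM with vehicle. The groups overlapped, with vehicle 1 lowest. *Dhx58* (LGP2), a regulator of both sensors, ran from 23.8 to 41 CPM with niclosamide and from 26.1 to 33.6 CPM with vehicle. *Zbp1* detects Z-form nucleic acid and can trigger necroptosis. It had 136, 260 and 103 CPM with niclosamide, against 119, 139 and 84.2 CPM with vehicle. Niclosamide 2 stood far above the other 5 libraries, and the log2 fold change of 0.55 ± 0.37 (SE) was 0.06 without that library.

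The Ifit family, whose products bind abnormal viral RNA caps and ends, lies in a cluster on chromosome 19. *Ifit1*, at chr19:34640889-34650009, had 47.7, 78.2 and 63.5 CPM with niclosamide, against 51.6, 66.8 and 56.4 CPM with vehicle. *Ifit2* had 107, 115 and 76.8 CPM with niclosamide, against 44.4, 93 and 67.4 CPM with vehicle. Only niclosamide 3 of the *Ifit2* values fell within the vehicle range (log2 fold change 0.55 ± 0.29 SE, interval -0.16 to 1.25). *Ifit3*, a partner that stabilises IFIT1 on RNA in human cells, had 79.6, 98.7 and 63.4 CPM with niclosamide, against 51.8, 83.6 and 68.5 CPM with vehicle. The groups overlapped in all 3 genes. All 3 log2 fold changes were above 0, with a median of 0.25, and that of *Ifit1* turned to -0.08 without niclosamide 2. *Ifit3* shares 51.2% of its 50-base words with *Ifit3b* in the GENCODE M21 transcripts. The recorded counting command does not turn on reads with several alignments, so how much of its signal was counted is uncertain.

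The oligoadenylate synthetases make a second messenger that switches on RNase L. All 6 had a log2 fold change below 0, with a median of -0.11, and 0 passed after adjustment. All 6 also stayed below 0 with RLE and upper-quartile scaling, but 4 turned above 0 without niclosamide 1 and 3 without niclosamide 3. *Oas2*, at chr5:120730333-120749884, had 38.5, 74.9 and 58.3 CPM with niclosamide, against 73.3, 104 and 92.5 CPM with vehicle. Niclosamide 1 and 3 were below every vehicle library, and niclosamide 2 passed only the pooled vehicle 1. The log2 fold change was -0.65 ± 0.26 (SE; edgeR, adjusted p = 0.714), and -0.44 to -0.91 over fits that each left out 1 library. *Oas1a* had 35.4, 63.3 and 47.3 CPM with niclosamide, against 53.4, 53.5 and 47.7 CPM with vehicle. *Oasl2*, a family member with ubiquitin-like domains, had 135, 230 and 154 CPM with niclosamide, against 193, 191 and 163 CPM with vehicle. In both genes niclosamide 2 was above every vehicle library, and niclosamide 1 and 3 were below every one. *Oas3* and *Oasl1* were wider still. *Oas3* ran from 26.4 to 63.8 CPM with niclosamide and from 40.8 to 48.2 CPM with vehicle, and *Oasl1*, which in the mouse holds back IRF7 translation, from 11.2 to 37.6 CPM with niclosamide and from 21.1 to 25 CPM with vehicle. Without niclosamide 2 their log2 fold changes were -0.77 and -0.80, against -0.21 and -0.11 with all libraries (adjusted p by edgeR 0.207 and 0.326 without it, and 0.207 to 1 and 0.326 to 1 over all alternatives). *Oas1g* ran from 10.9 to 17.7 CPM with niclosamide and from 13.4 to 17.0 CPM with vehicle. *Oas1a* shares 57.6% of its 50-base words with *Oas1g*, and *Oas1g* 45.2% with *Oas1a*, so how reads fell between these copies is uncertain.

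Of the 3 ISG15 genes, the ligase *Herc6* had a log2 fold change above 0, and *Isg15* and *Usp18* had values below 0. *Isg15* encodes a ubiquitin-like protein, at chr4:156199424-156200818, and its promoter holds the triple ISRE core printed above. It had 33.2, 73.9 and 52.4 CPM with niclosamide, against 63.7, 74.6 and 56.3 CPM with vehicle. Niclosamide 1 and 3 were below every vehicle library, and niclosamide 2 was close to the highest (log2 fold change -0.29 ± 0.29 SE). *Usp18*, which removes ISG15 and shuts off signalling at IFNAR2, had 25.1, 48.6 and 33.2 CPM with niclosamide, against 39.1, 46.4 and 37.8 CPM with vehicle, with the same 2 niclosamide libraries below every vehicle one and niclosamide 2 highest. *Herc6*, the main ISG15 ligase of the mouse, at chr6:57580992-57665136, had 75.2, 88.9 and 72.3 CPM with niclosamide, against 37.1, 68.7 and 49 CPM with vehicle. All 3 niclosamide values exceeded all 3 vehicle values, by a narrow margin over vehicle 2. Its log2 fold change was 0.61 ± 0.23 (SE; edgeR, adjusted p = 0.685), and it stayed between 0.42 and 0.87 with each library left out. Whether *Herc6* and *Isg15* differ in their response was not tested. *Herc6* shares 12.5% of its 50-base words with other genes, mainly *Gm45193*.

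The other effectors were mixed, with 4 of 9 above 0 and a median log2 fold change of -0.02. *Mx1*, a GTPase that blocks influenza virus and is inactive in C57BL/6 mice through a deletion in the gene, had 28.5, 23.3 and 18 CPM with niclosamide, against 12.8, 29.7 and 18 CPM with vehicle. The vehicle group alone spanned every niclosamide value. *Rsad2* (viperin), which makes a chain-terminating nucleotide, had 30.8, 39.4 and 28.2 CPM with niclosamide, against 31.1, 38.3 and 43.2 CPM with vehicle, and vehicle 3 was its highest library. Its neighbour *Cmpk2*, which supplies the nucleotide precursor, ran from 24.5 to 38.4 CPM with niclosamide and from 27.4 to 34.7 CPM with vehicle. *Bst2* had 180, 317 and 247 CPM with niclosamide, against 254, 277 and 259 CPM with vehicle, with the vehicle libraries close together inside a wide niclosamide range. *Isg20*, an RNA exonuclease, had 18.1, 39.6 and 38.8 CPM with niclosamide, against 23.5, 25.2 and 21 CPM with vehicle. Here niclosamide 2 and 3 were above every vehicle library and niclosamide 1 below. *Samd9l*, a translation inhibitor, had 169, 281 and 192 CPM with niclosamide, against 113, 199 and 164 CPM with vehicle. Its log2 fold change of 0.43 ± 0.28 (SE) was not called. *Eif2ak2*, the kinase PKR, which stops translation on double-stranded RNA, had a log2 fold change of -0.02 with an interval of -0.63 to 0.59. *Mx2* (-0.29) and *Rtp4* (-0.09) were likewise within the spread of their libraries.

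In the remaining set 6 of 7 log2 fold changes were above 0, with a median of 0.22, and 0 were called. *Parp9* and *Dtx3l* encode an ADP-ribosyltransferase and a ubiquitin ligase that work as one complex. They overlap at their 5′ ends on opposite strands of chromosome 16, which the authors' stranded counting keeps apart. *Parp9* had 156, 240 and 139 CPM with niclosamide, against 140, 160 and 135 CPM with vehicle. *Dtx3l* had 149, 219 and 113 CPM with niclosamide, against 112, 139 and 108 CPM with vehicle. In both, niclosamide 2 was highest and niclosamide 3 was within the vehicle range. Niclosamide 1 was within it too in *Parp9*, and above it in *Dtx3l*. The log2 fold changes of 0.30 ± 0.23 and 0.42 ± 0.26 (SE) were 0.01 and 0.12 without niclosamide 2. *Parp14*, a related transferase, *Trim30a*, a feedback inhibitor of Toll-like receptor signalling in the mouse, and *Ifi44* had log2 fold changes of 0.17, 0.22 and 0.29. *Xaf1*, a promoter of apoptosis, had 0.12. *Ifi35*, which binds other interferon-induced proteins, ran from 49.8 to 66.6 CPM with niclosamide and from 53.4 to 64.8 CPM with vehicle.

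The members followed single libraries more than the groups. Niclosamide 2 was the highest of the 6 libraries in 30 of 36 genes (83.3%), against 17.8% of all genes tested, and above both other niclosamide libraries in 33 of 36 (91.7%), against 32.2%. Niclosamide 1 was the lowest of the 6 in 14 genes (38.9%, against 23.9% of all genes tested) and vehicle 1 in 12 (33.3%, against 17.4%). Niclosamide 3 was lowest in 6 (16.7%, against 15.5%) and vehicle 3 in 4 (11.1%, against 8.73%). Vehicle 2 was the highest vehicle library in 30 of 36, a share that was not computed over all genes. The 36 genes together took 0.288%, 0.437% and 0.309% of the counts in niclosamide 1 to 3, against 0.287%, 0.375% and 0.301% in vehicle 1 to 3. Their mean was 5.90, 6.50 and 5.97 log2 CPM with niclosamide, against 5.91, 6.27 and 5.98 log2 CPM with vehicle. Each group thus held 1 higher library and 2 low libraries at nearly equal levels. The median SD of log2 CPM over the genes was 0.39 with niclosamide and 0.19 with vehicle, against 0.31 and 0.22 over all genes tested. Without niclosamide 2 the median log2 fold change turned to -0.09 and 13 of 36 were above 0, and without niclosamide 1 30 of 36 were above 0.

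**Figure D4:**
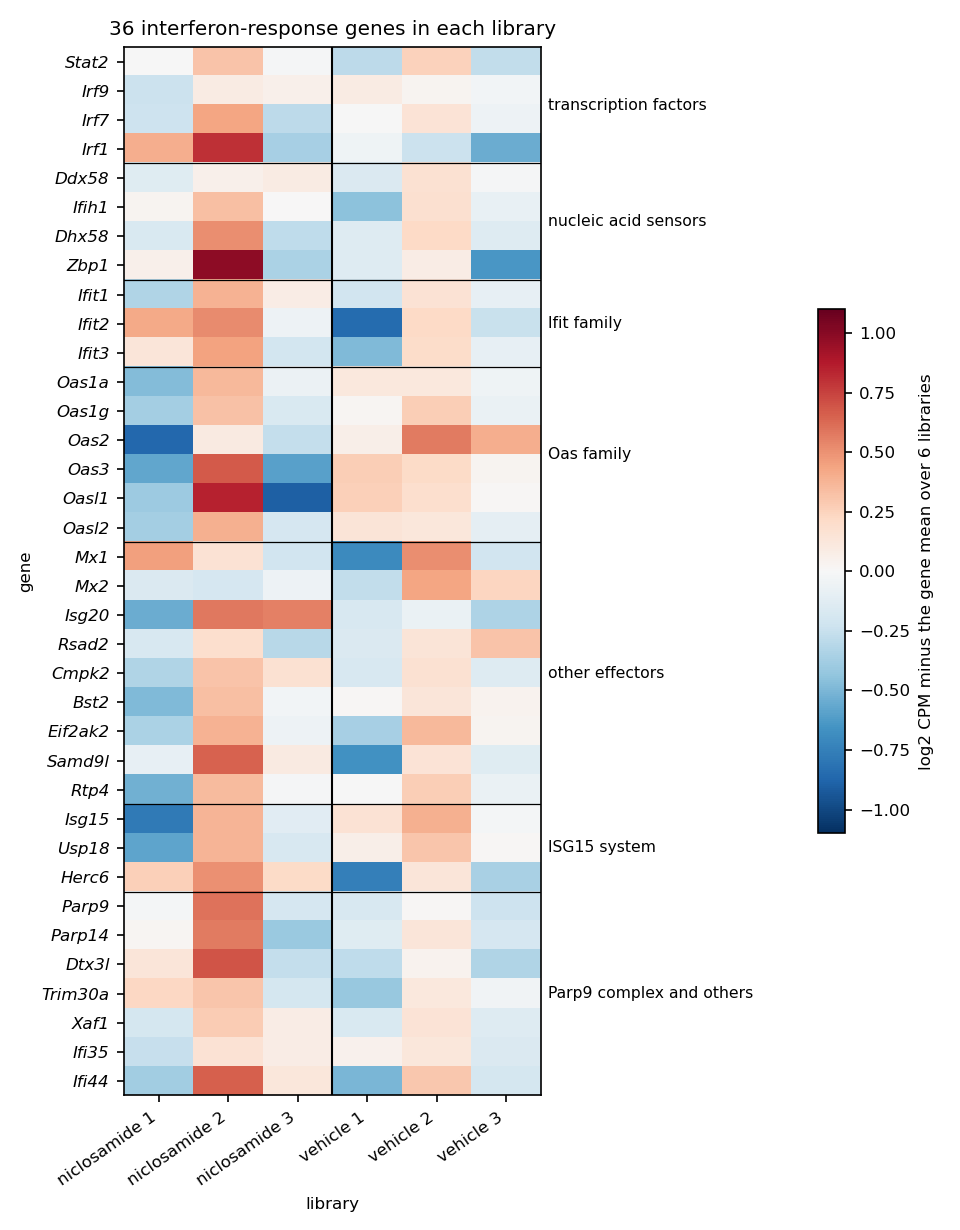
Log2 CPM of each gene minus its mean over the 6 libraries (colour), with libraries in columns, niclosamide left of the line and vehicle right of it, and genes by role in rows. The niclosamide 2 column is red in every row but *Mx2* and is highest in 30 of 36. Niclosamide 1 and vehicle 1 hold the lowest value in 14 and 12 genes (38.9% and 33.3%, against 23.9% and 17.4% of all genes tested).

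Markers of other cells varied across the same libraries. Niclosamide 2 had the lowest skeletal muscle sum, 825 CPM, the lowest smooth muscle sum, 1868 CPM, and the lowest adipocyte sum, 38.2 CPM against 71.2 to 720 CPM in the other 5 libraries. Epithelial markers averaged 4.78, 7.25 and 5.73 log2 CPM in niclosamide 1 to 3, and 7.32, 6.57 and 6.31 log2 CPM in vehicle 1 to 3. T and NK cell markers had 12 of 12 log2 fold changes above 0, with sums of 407 to 647 CPM with niclosamide against 244 to 290 CPM with vehicle, and niclosamide 2 was highest. Macrophage markers had 10 of 11 above 0 and summed to 4316 to 8577 CPM with niclosamide, against 2668 to 5149 CPM with vehicle, with niclosamide 1 highest. Most of that sum was *Lyz2*, at 5702, 3865 and 2706 CPM with niclosamide, against 2865, 1363 and 2228 CPM with vehicle. The list mean, in which each gene counts equally, was also highest in niclosamide 1, at 7.66 log2 CPM. Plasmacytoid dendritic cell markers summed to 368 to 537 CPM with niclosamide and 379 to 500 CPM with vehicle. Most of that sum was *Tcf4* and *Cox6a2*, and *Siglech*, a defining gene of these cells, had 11.4, 3.89 and 9.77 CPM with niclosamide, against 8.75, 5.03 and 7.04 CPM with vehicle. Neutrophil markers had 8 of 8 below 0, with sums of 220 to 333 CPM with niclosamide against 374 to 834 CPM with vehicle. Their list means overlapped, at 3.50, 4.31 and 3.85 log2 CPM in niclosamide 1 to 3, against 5.48, 4.25 and 5.49 log2 CPM in vehicle 1 to 3. Smooth muscle markers had 7 of 7 below 0, with sums of 1868 to 4619 CPM with niclosamide against 5565 to 8267 CPM with vehicle. No marker of these lists was at 0 in any library. The part of these cells in the interferon values was not tested.

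**Figure D5:**
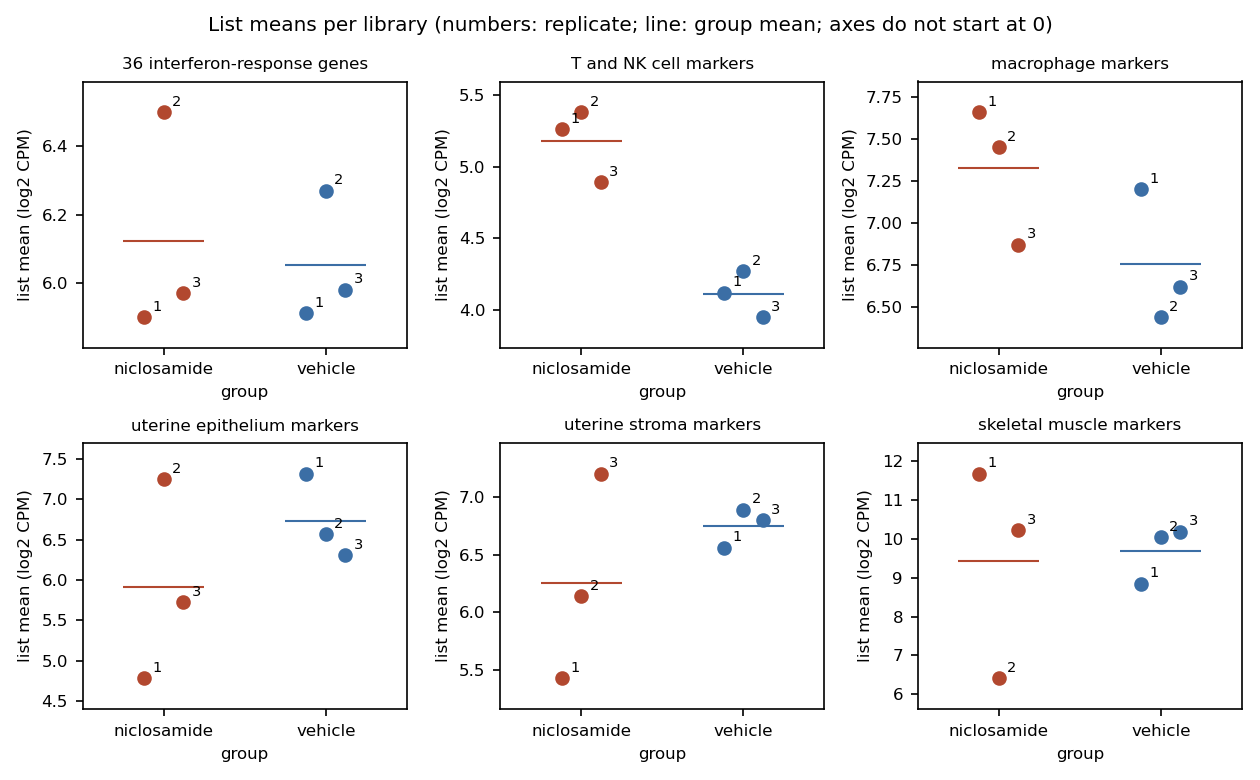
Mean log2 CPM of the 36 genes and of 5 marker lists in each library (points, numbered by replicate), niclosamide left and vehicle right, with the group mean as a line; the axes do not start at 0. The interferon genes show 1 high library per group (6.50 and 6.27), whereas T and NK cell markers part the groups.

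Upstream of the 36 genes, 9 type I and type III interferon genes were looked up. Reads of *Ifna1*, *Ifna2*, *Ifna4*, *Ifna5*, *Ifnk*, *Ifnl2* and *Ifnl3* were 0 in every library, and *Ifnb1* had 1 read, in niclosamide 2. A count of 0 allows up to 3 counts, or 0.0927 to 0.102 CPM with niclosamide and 0.0824 to 0.109 CPM with vehicle, counting error only. *Ifne*, the uterine interferon epsilon, had 0.34, 5.81 and 1.52 CPM with niclosamide, against 1.86, 3.65 and 2.26 CPM with vehicle. It was highest in niclosamide 2 and vehicle 2, at only 10 to 188 reads per library. Whether its level is linked to that of the 36 genes was not tested. *Ifng*, made by T and NK cells, had 18.4, 29.4 and 5.16 CPM with niclosamide, against 5.29, 4.42 and 2.14 CPM with vehicle. Niclosamide 1 and 2 were above every vehicle library and niclosamide 3 lay within the vehicle range, and the log2 fold change of 2.16 ± 0.67 (SE) was not called by edgeR (quasi-likelihood, adjusted p = 0.623), though it was by DESeq2 (adjusted p = 0.0495, and 0.0495 to 1 over all alternatives).

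None of the receptor and kinase genes was called. *Ifnar1* had 152, 144 and 128 CPM with niclosamide, against 133, 132 and 126 CPM with vehicle, and *Ifnar2* had a log2 fold change of 0.14 ± 0.16 (SE). *Jak1* had 367, 348 and 452 CPM with niclosamide, against 322, 336 and 344 CPM with vehicle, without overlap but by a narrow margin, and *Tyk2* had a log2 fold change of 0.29 ± 0.16 (SE).

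Of 85 further pathway genes listed (ligands and receptors, signal transduction, sensing and other interferon-induced genes), 83 were in the files and 70 were tested. By the same edgeR test 0 passed, 52 of 70 were above 0 with a median log2 fold change of 0.15, and 8 had an unadjusted p under 0.05, 7 of them higher and 1 lower (3.37% and 3.55% of all genes tested). DESeq2 called 1 of them, *Ifng*. The groups did not overlap in 12 of 70 (17.1%), 11 higher and 1 lower (5.9% and 6.37% of all genes tested). Genes with an unadjusted p under 0.05 besides *Ifng* included *Phf11b* (log2 fold change 0.57), the RNA-sensing receptors *Tlr8* (0.85) and *Tlr7* (0.60), the antibody receptor and ligase *Trim21* (0.42), the peptide transporter *Tap1* (0.61) and, lower, *Trim30b* (-1.03 at 0.88 CPM with niclosamide and 1.79 CPM with vehicle). *Tlr8* had 83.7, 67.9 and 41.2 CPM with niclosamide, against 40.9, 30.2 and 35.9 CPM with vehicle. Its niclosamide libraries had the same order as the macrophage markers, and a link was not tested. Of these, *Ifng*, *Phf11b*, *Tap1* and *Trim21* were highest in niclosamide 2, as most of the 36 genes were.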

How the data were processed

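The authors deposited raw counts, whole numbers of reads for each gene symbol. Per the file headers they come from featureCounts 1.4.6-p4, reverse-stranded, over exons of the GRCm38.p3 annotation, after alignment with STAR. The recorded command does not turn on counting of reads with several alignments. Other tools in the submitters' processing notes are Trimmomatic 0.33 and bcl2fastq 1.8.4, and the notes give STAR as 2.4.2a and an edgeR of version 3.12.0. Totals were 27797121 to 34797000 counts per library.

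From these counts, genes were kept by filterByExpr (minimum count 10, minimum total 15), scaled by TMM and fitted by edgeR 4.0.16 (R 4.3.3), as a robust quasi-likelihood model with the group as its only term. P-values were two-sided, with Benjamini-Hochberg adjustment across the 17364 genes and a threshold of 0.05. The SE divides the size of the log2 fold change by the root of its F statistic. Log2 CPM used a prior count of 2. The procedure was run on simulated counts whose set changes were all larger than those of the 36 genes. That run therefore does not tell how changes of their size would be called. Alternatives were RLE and upper-quartile scaling, DESeq2 1.42.0, limma-voom (limma 3.58.1) without and with quality weights, other filters, an adjusted p of 0.10, a replicate block, and each library left out. Shared 50-base words were counted over GENCODE M21 transcripts on the same strand. Promoter sequences are from RefSeq (GRCm38.p6).

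The members, lists and tests were chosen with earlier results of these data known. Values in every library are given for 17 fixed members and the 6 others with the smallest p. Pathway genes named are 8 fixed ones and up to 5 per direction with an unadjusted p under 0.05. One of the fixed pathway genes is not reported here.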

Additional observations from a re-analysis of the deposited data

How the results depend on the processing

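Of the 36 genes, 0 passed the adjusted threshold under any of the 14 alternative fits, and 17 kept their direction in all of them. The number called over all genes, 0 by edgeR, was 195 by DESeq2 and 1 without a filter on low counts; DESeq2 called 1 other pathway gene against 0, *Ifng* at a log2 fold change of 2.18. With the replicate number as a block, 0 genes were called and 3 of the 36 had an unadjusted p under 0.05, against 2. The block was not used, since the replicate numbers are not described as pairing the libraries. Deviations of same-numbered libraries from their group means correlated at -0.0846, -0.0875 and 0.266 over genes, and vehicle 1 correlated best with niclosamide 2 (0.36). With so few libraries these correlations cannot decide whether any were paired. The number above 0 ranged from 13 to 30, and the median from -0.09 to 0.21, with 1 library left out.

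Other scaling, filters or tests changed the sign in 2 of the 36 genes, both with values near 0, and leaving out a library did so in 19. *Ddx58* was at -0.01 with upper-quartile scaling and without a filter, and at -0.00 with quality weights and with a CPM of at least 1 in 3 libraries, and *Ifi35* was at 0.01 with RLE scaling and by DESeq2 and 0.05 with quality weights. With a library left out, log2 fold changes that turned ranged from -0.08 to 0.28 in *Ifit1*, -0.04 to 0.59 in *Mx1*, -0.33 to 0.10 in *Oas1a*, -0.36 to 0.02 in *Oas1g*, -0.77 to 0.02 in *Oas3*, -0.80 to 0.22 in *Oasl1*, -0.35 to 0.07 in *Oasl2*, -0.31 to 0.12 in *Irf7*, -0.12 to 0.04 in *Irf9*, -0.02 to 0.54 in *Ifi44*, -0.07 to 0.09 in *Ddx58*, -0.23 to 0.23 in *Dhx58*, -0.31 to 0.10 in *Bst2*, -0.02 to 0.22 in *Xaf1*, -0.33 to 0.11 in *Rtp4*, -0.25 to 0.17 in *Eif2ak2*, -0.10 to 0.11 in *Ifi35*, -0.14 to 0.39 in *Parp14*, -0.03 to 0.28 in *Cmpk2* and -1.48 to 0.50 in *Ifne*. The 19 members among these were not all near 0, as *Ifi44* was at 0.29 and *Oas3* at -0.21 with all libraries. The cause was not tested. Every one of the 36 genes had at least 214 reads in every library, and each group had 3 libraries.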

Other observations

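The Ifitm genes, interferon-induced membrane proteins that block virus entry, were chosen here after their values were seen. *Ifitm3* had 306, 521 and 469 CPM with niclosamide, against 719, 462 and 551 CPM with vehicle, and *Ifitm2* had 187, 248 and 249 CPM with niclosamide, against 365, 204 and 299 CPM with vehicle. *Ifitm1* had 41.7, 154 and 165 CPM with niclosamide, against 197, 144 and 163 CPM with vehicle, so niclosamide 1 alone was far below the other 5 libraries. In all 3 genes vehicle 1 was the highest library, as it also was in *Ifi27l2a*. In *Ifi27* it was highest by a narrow margin, at 91.2 CPM against 90.5 CPM in niclosamide 3. No other gene among the 35 tested in the list of other interferon-induced genes had vehicle 1 highest. Vehicle 1 was highest in 16.1% of all genes tested and in 0 of the 36 antiviral genes. The log2 fold changes of -0.42, -0.35 and -0.48 for *Ifitm3*, *Ifitm2* and *Ifitm1* were not called by edgeR's quasi-likelihood test (Benjamini-Hochberg adjusted p = 0.863, 0.895 and 0.957), and that of *Ifitm1* was -0.08 without niclosamide 1.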
